A study of Homo sapiens with 20 samples.

Results

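The sites described here are the places where IRF4 was bound in both of 2 multiple myeloma cell lines while POU2AF1 was not called in either. They were chosen from the peak lists themselves: a region of the IRF4 list of DMSO-treated MM1.S cells on chromosomes 1 to 22 or X was taken when it shared at least 1 base with an IRF4 region of DMSO-treated NCI-H929 cells and with no region of the POU2AF1 DMSO list of either line. The rule gave 4600 sites of 33326 MM1.S IRF4 regions (13.8%), and of 21711 such regions found in both lines. The other regions found in both lines carried POU2AF1 in both (10829), in MM1.S only (4915) or in NCI-H929 only (1367), and 11615 further regions were called for IRF4 in MM1.S but not in NCI-H929. The 4600 sites overlapped 4601 NCI-H929 IRF4 regions.

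The series holds 20 ChIP-seq peak lists in 10 pairs, each pair being 1 library from cells given DMSO, the solvent, and 1 from cells given 1 µM AU-15330 in DMSO, for 4 to 6 h. MM1.S and NCI-H929 are established multiple myeloma lines, each with an IRF4 and a POU2AF1 pair made with antibodies against the endogenous proteins. For these pairs the study's figure legends give 6 h of treatment. The remaining 12 lists come from NCI-H526 and NCI-H1048, established lines of the POU2F3 subtype of small cell lung cancer (SCLC): POU2F3 pairs in both, pairs for HA-tagged POU2F3 (dTAG lines) in both, HA-tagged POU2AF2 in NCI-H526 and 1 HA pair in NCI-H1048 labelled without its protein. Each condition had 1 library, so no difference between treatments, proteins or lines below has a replicate check or a test. Intervals are exact 95% binomial intervals, cover counting error only, and treat the regions of a library as if they were independent.

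IRF4 is a transcription factor of lymphocytes and is required for plasma cell identity and for the survival of myeloma cells. It binds DNA weakly alone and recognises GAAA-containing sequence either as tandem copies, the interferon-stimulated response element (ISRE), or next to an ETS-family site, the composite element EICE on which it pairs with PU.1 or SPIB. POU2AF1 (OCA-B) is a B cell coactivator that joins POU2F1 and POU2F2 on the octamer sequence. AU-15330 is a proteolysis-targeting chimera that degrades SMARCA2 and SMARCA4, the ATPases of the mSWI/SNF complexes, which slide and evict nucleosomes so that transcription factors can reach their DNA.

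Sequences from the hg38 reference show what the IRF4 match looked like at the strongest sites and at sites in interferon, antigen presentation and plasma cell genes. Capitals mark the 10-base match closest to the MM1.S summit, and each sequence is written on the strand of the match. For the intergenic sites the label gives the gene with the nearest start, 17.4 kb away for C1GALT1 and 384 kb for KLF4. The match is GAAA (ISRE-like) or GGAA (EICE-like), then any 2 bases, then GAAA.
near C1GALT1, chr7:7251929-7251958, plus strand: acacaaaaggGGAACTGAAAgtaccagatg
near KLF4, chr9:107874765-107874794, plus strand: tatagtttagGGAAGTGAAAgtcagcttga
NSUN7 promoter, chr4:40763425-40763454, minus strand: gaagcacgagGAAACTGAAActcggagcct
IFI44 promoter, chr1:78649761-78649790, minus strand: tcagagaaagGAAACTGAAActcagtgtgc
RSAD2 promoter, chr2:6877622-6877651, minus strand: ttccacatgtGAAACTGAAAgttgaaacag
STAT2 intron, chr12:56358986-56359015, plus strand: gtctatttagGAAACTGAAActtatgcttg
IRF2 promoter, chr4:184449050-184449079, plus strand: actgagaacaGAAACCGAAAccaggggtga
PSMB10 promoter, chr16:67936852-67936881, minus strand: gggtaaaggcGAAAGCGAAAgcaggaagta
IKZF3 intron, chr17:39818471-39818500, plus strand: tgaaactgcaGAAAGTGAAAccgcagagaa
The match lay 2 bases from the summit at the C1GALT1 site, 0 at KLF4, 11 at NSUN7, 13 at IFI44, 35 at RSAD2, 7 at STAT2, 5 at IRF2, 25 at PSMB10 and 24 at IKZF3. The same core, GAAACTGAAA, stood at the NSUN7, IFI44, RSAD2 and STAT2 sites. It was also the commonest match over all sites, with 337 copies, ahead of GAAAGTGAAA (182), GGAAGTGAAA (161) and GGAACTGAAA (157).

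IRF4 fold enrichment at the sites chosen by the rule was of the same order as where POU2AF1 was called in both lines. It was lower at the sites outside promoters, and so was the IRF4 level over all regions. MACS2 fold enrichment, the summit pileup against the local background with 1 added to each, had a median of 4.55 in MM1.S (range 2.5 to 17.9) and 5.57 in NCI-H929 (range 1.93 to 20.6). At regions with POU2AF1 in both lines the medians were 4.60 and 5.96. When the MM1.S list was split by fold into 5 bins of equal size, the strongest bin held 23.2% of the 4600 (1067 sites) and the weakest 15.8% (728 sites). The sites were narrower, with a median width of 265 bases against 375. The IRF4 level of a site was its summit pileup divided by the pileup expected from the library's background alone. It had a median of 8.21 in MM1.S and 10.2 in NCI-H929, against 9.58 and 13.9 at regions with POU2AF1 in both lines. The level was higher in NCI-H929 at 3165 sites (68.8%). Across sites, the fold enrichments of the lines had a Spearman rho of 0.35, a description over 4600 sites of 2 libraries that were selected for being called in both.

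**Figure D1:**
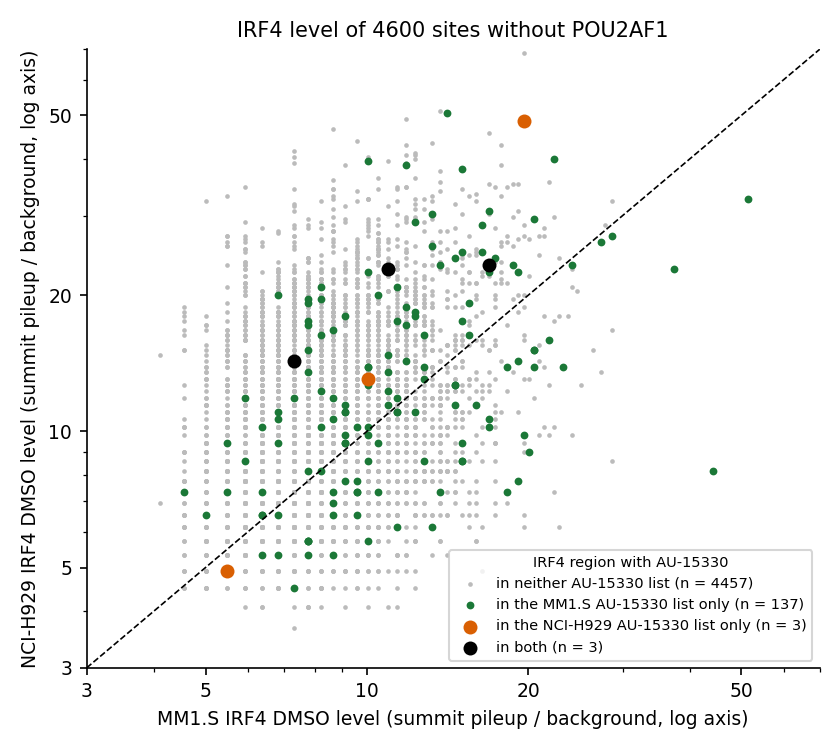
Each point is 1 of the 4600 sites, with its IRF4 level (summit pileup over library background, log axes) in the MM1.S DMSO library on the x axis and in the NCI-H929 DMSO library on the y axis, coloured by whether an IRF4 region was called there with AU-15330. The y axis ends below the highest NCI-H929 level, 78.9, so the plot leaves out any site beyond its limit. Most points lie above the dashed line of equal level (3165 sites), and the 140 sites found again in MM1.S lie over most of the range, with a median MM1.S level of 10.9 against 7.98 for the others.

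Strength was ranked by the mean of a site's fold ranks in the 2 lists. The first was an intergenic site 17.4 kb from the transcription start site (TSS) of C1GALT1, which makes the core 1 structure of O-linked glycans (chr7:7251735-7252126). Its IRF4 level was 51.5 in MM1.S and 32.7 in NCI-H929 with DMSO. With AU-15330 an IRF4 region was still called in MM1.S, at a level of 19.3, and none in NCI-H929. Next came a site in the promoter of SGCA, a sarcoglycan of muscle (chr17:50171008-50171336), with levels of 22.3 and 40.1 in DMSO and 5.70 in MM1.S with AU-15330, and again no region in NCI-H929. The sites ranked 3 and 4, an intergenic site nearest SPEF2 (chr5:35518101-35518517, levels 27.8 and 28.6) and an intronic site in KIF4A (chrX:70336728-70337112, levels 19.2 in MM1.S and 20 in NCI-H929), were in neither AU-15330 list. Of the 15 best-ranked sites, 3 were found again in MM1.S with AU-15330 and none in NCI-H929, 2 were in promoters and 6 held an IRF match. The other best-ranked sites lay in introns of SLCO3A1, RPRD1A, AKAP6 and KALRN, in the promoter of NSUN7, or between genes with ADAM2, BMPER, KLF4, CDH19, VEGFC and MOCS1 as the nearest. KLF4, a zinc finger transcription factor, was 384 kb from its site.

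The threshold that separates these sites from the rest was that of the POU2AF1 lists. The closest POU2AF1 regions began 1 base away, at 4 sites, among them an intergenic site near PDZK1IP1 (chr1:47178783-47179166) and promoter sites of NECTIN2 (chr19:44845890-44846423) and SLC30A3 (chr2:27263105-27263411). Just outside the rule were a ZNF396 promoter region (chr18:35376808-35377120) whose only POU2AF1 region, in NCI-H929, had a −log10 q of 1.38 and a fold of 2.83, and an intergenic region nearest CHD7 whose POU2AF1 region, in MM1.S, had a −log10 q of 1.41 and a fold of 2.43. A POU2AF1 DMSO region lay within 1 kb of 744 sites (16.2%) and within 10 kb of 2129 (46.3%). Absence from a peak list states that POU2AF1 did not pass the caller's threshold, not that none was bound.

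The first question was whether IRF4 was still called at these sites after the mSWI/SNF ATPases were degraded. In MM1.S, an IRF4 AU-15330 region overlapped 140 of the 4600 sites, or 3.04% (2.57 to 3.58). Over the whole MM1.S IRF4 DMSO list the share was 9.76%, over the regions found in both lines 14.1%, and at regions with POU2AF1 in both lines 22.5% (21.7 to 23.3). With POU2AF1 in MM1.S only it was 8.48% (7.72 to 9.3) and in NCI-H929 only 5.19% (4.08 to 6.51). The low share was not particular to the sites, as IRF4 regions called in MM1.S alone stood lower still, at 1.62% (1.4 to 1.86). In NCI-H929, 6 of the 4600 sites were overlapped by an IRF4 AU-15330 region, or 0.130% (0.0479 to 0.284), where the background was 1.66% of the regions found in both lines and 0.887% of the whole NCI-H929 list. Regions with POU2AF1 in both lines stood at 2.95% (2.64 to 3.28). Only 3 sites were found again in both lines, 137 in MM1.S alone and 3 in NCI-H929 alone, so that 4457 (96.9%) were in neither AU-15330 list.

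The AU-15330 IRF4 lists were far shorter than their DMSO partners, with 6511 regions against 33326 in MM1.S and 1982 against 65174 in NCI-H929. Background pileups were close, 2.28 with AU-15330 and 2.19 with DMSO in MM1.S, and 2.23 and 2.44 in NCI-H929. The weakest region called with AU-15330 had a −log10 p of 3.96 in MM1.S and 4.18 in NCI-H929, above the 3.45 and 3.22 of the DMSO lists. Were each site's DMSO pileup carried over in proportion to the background, 99.6% of the sites would have passed in the MM1.S AU-15330 list and 98.7% in that of NCI-H929, a figure that leaves out sampling error and therefore runs high. Of the AU-15330 regions in MM1.S, 3260 (50.1%) overlapped any MM1.S IRF4 DMSO region, and 2.15% overlapped one of the sites described here. With both MM1.S lists reduced to their 6511 strongest regions, 865 of the sites remained in the DMSO list and 60 of them (6.94%) were found again, against 901 of 3068 (29.4%) where POU2AF1 was called in both lines.

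The share was below that of the regions with POU2AF1 in both lines at every strength of IRF4 binding. In MM1.S it was 2.20% in the weakest of the 5 bins by fold, 1.43%, 2.65% and 2.54% in the middle bins and 5.72% (4.4 to 7.28) in the strongest. Regions with POU2AF1 in both lines went from 18.6% in the weakest bin to 26.1% in the strongest. Promoters are common among the latter, and the gap was also present without them. Outside promoters the shares were 2.8% (2.31 to 3.36) and 17% (15.9 to 18.3), and outside promoters with a GC content under 50% they were 2.55% and 13.5%. The share of both sets was highest at the highest IRF4 levels. Outside promoters, 1.01% of the sites with a DMSO level under 8 were found again, against 9.53% where POU2AF1 was called, and 17.9% (12.1 to 25.2) of the 145 sites with a level of 16 or more, against 32.7% (29.3 to 36.3). Sites with an IRF match were found again in 2.99% (2.16 to 4.01) and those without in 3.07% (2.5 to 3.73), a difference within the counting intervals.

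**Figure D2:**
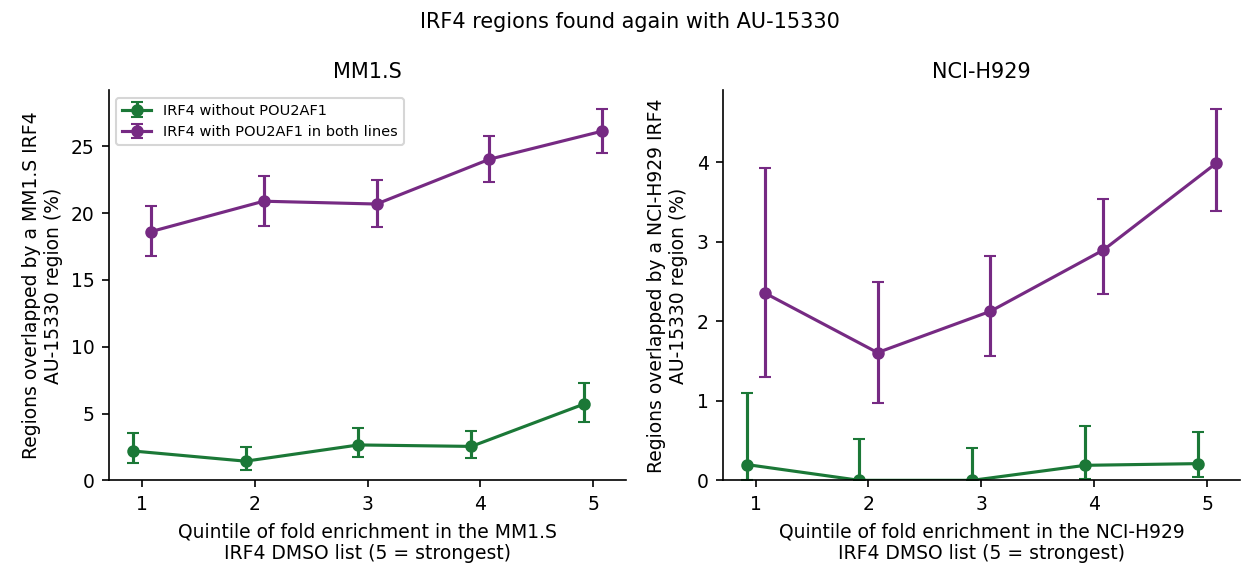
Share of IRF4 DMSO regions overlapped by an IRF4 region of the same line with AU-15330 (y axis, percent; the scales differ between panels), in 5 bins of equal size by DMSO fold enrichment (x axis), for the 4600 sites without POU2AF1 (green) and the 10829 regions with POU2AF1 in both lines (purple). Bars are exact 95% binomial intervals. In MM1.S the green points lie between 1.43% and 5.72% and the purple ones between 18.6% and 26.1%.

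Where IRF4 was still called in MM1.S, its level was mostly lower. The ratio of the AU-15330 to the DMSO level over the 140 sites had a median of 0.658 (quartiles 0.534 and 0.877, range 0.236 to 1.52), and it was below 1 at 119 of them (85%), against 83.7% over all MM1.S IRF4 regions found again. These ratios exist only where a region passed the threshold in both lists. At the 6 sites found again in NCI-H929 the median ratio was 0.424 and 5 ratios were below 1, close to the median of 0.403 and the 323 of 360 (89.7%) over all MM1.S IRF4 regions found again there. The 140 sites had a higher MM1.S fold than the 4460 lost ones (median 5.21 against 4.53) and were more often in promoters (19.3% against 12.1%). A POU2AF1 AU-15330 region of MM1.S overlapped 25 of the 140 (17.9%) and 188 of the 4460 (4.22%). What part the POU2AF1 signal has in the IRF4 calls at these sites was not tested.

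The 3 sites found again in both lines ranked 547, 1044 and 1726 of the 4600. An intronic site of STK17B, a serine/threonine kinase (chr2:196160139-196160408), had IRF4 levels of 16.9 with DMSO and 9.65 with AU-15330 in MM1.S, and of 23.3 and 9.41 in NCI-H929. An intergenic site nearest IRX1, a homeobox gene 272 kb away (chr5:3323682-3323872), had 7.30 and 8.34 in MM1.S and 14.3 and 10.8 in NCI-H929. The IRX1 site was also overlapped by regions in 3 DMSO lists and 4 AU-15330 lists of the SCLC lines. An intronic site of KCTD16, an auxiliary subunit of GABA-B receptors (chr5:144273279-144273781), had 10.9 and 6.14 in MM1.S and 22.9 and 8.07 in NCI-H929. All 3 were also overlapped by a POU2AF1 AU-15330 region of NCI-H929, and none held an IRF match. The sites found again in NCI-H929 alone were intronic, in NEK4, FOXO3 and CDH4, and the level at the FOXO3 site (chr6:108564299-108564606) went from 48.7 with DMSO to 7.17.

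Besides C1GALT1, SGCA and the ADAM2 site, the best-ranked sites found again in MM1.S included an intron of CBLB, an E3 ubiquitin ligase that restrains lymphocyte activation (chr3:105723229-105723527), whose level went from 16.4 to 7.90, and an exonic site of DEPDC1B (chr5:60597674-60597961), which went from 16.9 to 11.8. An intronic site of ERN1, the IRE1 sensor of the unfolded protein response, had levels of 37.4 with DMSO and 14 with AU-15330 in MM1.S. BCL2, the antiapoptotic gene, was singled out after its values were seen: 3 of the 4 sites in its window were found again in MM1.S, with levels of 19.2, 19.2 and 11.4 falling to 7.90, 7.90 and 6.58, and none was found again in NCI-H929, where the DMSO levels of these 3 were 14.3, 22.5 and 11.0.

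Although no POU2AF1 region was called at the sites with DMSO, some were called with AU-15330. A POU2AF1 AU-15330 region overlapped 213 sites in MM1.S (4.63%) and 161 in NCI-H929 (3.50%), 37 of them in both lines and 337 in either. Over all MM1.S IRF4 regions these lists overlapped 28.3% and 25.1%. In MM1.S the POU2AF1 AU-15330 list held 20677 regions against 36603 with DMSO, and in NCI-H929 16917 against 29817.

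In the genome, the sites were mostly far from genes' starts. By GENCODE 44, 12.3% (566 sites; 11.4 to 13.3) lay within 1 kb of the TSS of a protein-coding gene, 40.1% in introns (1845), 2.46% in exons (113) and 45.1% between genes (2076). Over all MM1.S IRF4 regions the promoter share was 32.3%, and at regions with POU2AF1 in both lines 64.1% (63.2 to 65.0). IRF4 regions of MM1.S alone were placed much like the sites, with 15.2% at promoters, 38.1% in introns and 44.2% between genes. The median distance to such a TSS was 23078 bases for the sites and 20002 bases for the regions of MM1.S alone. For regions with POU2AF1 in both lines it was 18 bases. Of the sites, 1144 (24.9%) were over 100 kb from the TSS of any protein-coding gene. That share was 22.7% of the regions of MM1.S alone and 16.9% of all MM1.S IRF4 regions. Base composition followed, with a median GC content of 42.3% in the 201 bases around the summit and 2 CpG dinucleotides, against 64.7% and 16 where POU2AF1 was called in both lines and 42.8% and 2 in the regions of MM1.S alone. Outside promoters the GC medians were 41.8% and 48.8%. Among the sites themselves, promoters made up 24.9% of the weakest bin by fold and 6.28% of the strongest. As a share of the MM1.S IRF4 regions of a chromosome, the sites ranged from 7% on chromosome 19 to 23.2% on chromosome X.

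**Figure D3:**
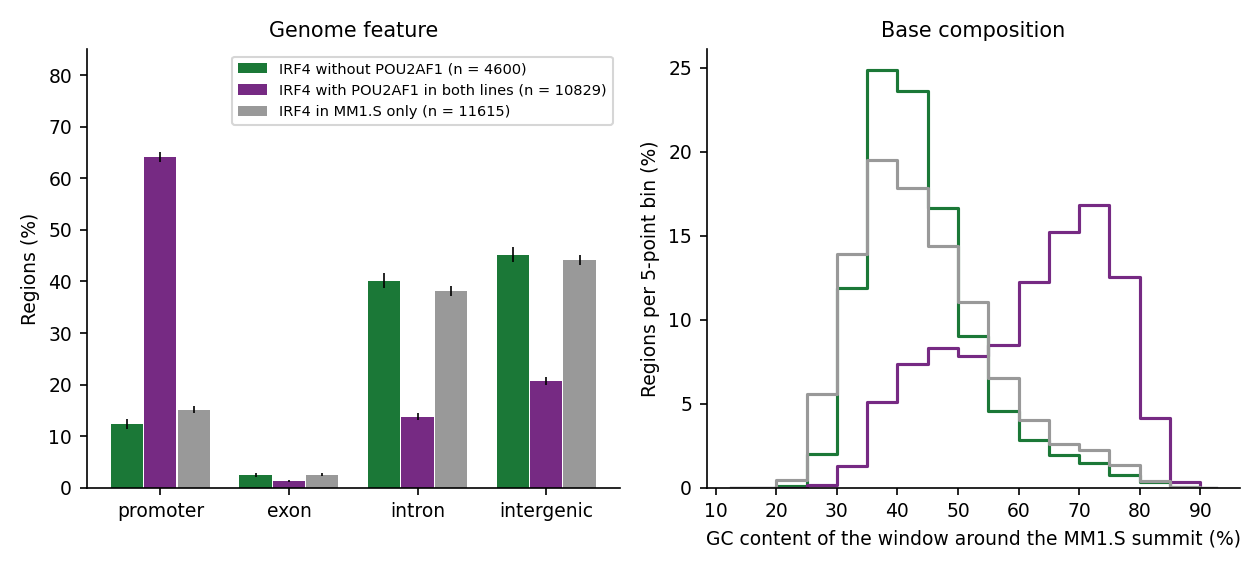
Left, percent of regions in each genome feature (bars start at 0; lines are exact 95% binomial intervals) for sites without POU2AF1 (n = 4600), regions with POU2AF1 in both lines (n = 10829) and IRF4 regions of MM1.S only (n = 11615). Right, percent of regions per 5-point bin of GC content in the 201 bases around the MM1.S summit. The sites without POU2AF1 are at promoters in 12.3% and peak near 40% GC, and those with POU2AF1 in 64.1% and near 70% GC.

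The lists from the SCLC lines, which took no part in the choice of sites, rarely reached them. No SCLC DMSO region overlapped 4108 of the 4600 sites (89.3%), against 66.5% of all MM1.S IRF4 regions and 30.7% of those with POU2AF1 in both lines. IRF4 regions of MM1.S alone were close to the sites, with 85.4% in no such list, and those with POU2AF1 in MM1.S only stood at 76.7%. The largest overlap among the 6 DMSO lists was with POU2F3 in NCI-H526, at 335 sites or 7.28% (6.55 to 8.07), where the background over all MM1.S IRF4 regions was 26.9%. POU2F3 in NCI-H1048 reached 2.54% of the sites (background 16.1%), HA-POU2F3 4.39% in NCI-H526 (background 21.6%) and 1.02% in NCI-H1048 (background 6.69%), and HA-POU2AF2 1.96% (background 15.3%). The HA pair of NCI-H1048 with an unnamed protein reached 0.804% with DMSO (background 6.96%). With AU-15330 the overlap with NCI-H526 POU2F3 was 42 sites (0.913%, background 7.01%). As labelled, the NCI-H1048 POU2F3 lists went the other way, from 117 sites with DMSO to 319 (6.93%, background 29.5%) with AU-15330, the latter list being the longer of the pair (51406 against 38034 regions). Whether the labels of that pair are exchanged cannot be told from the lists. Outside promoters, 8.08% of the sites were in any SCLC DMSO list, against 33.4% of the regions with POU2AF1 in both lines, 12.3% and 12.9% with POU2AF1 in MM1.S only and in NCI-H929 only, and 10.1% of the IRF4 regions of MM1.S alone.

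**Figure D4:**
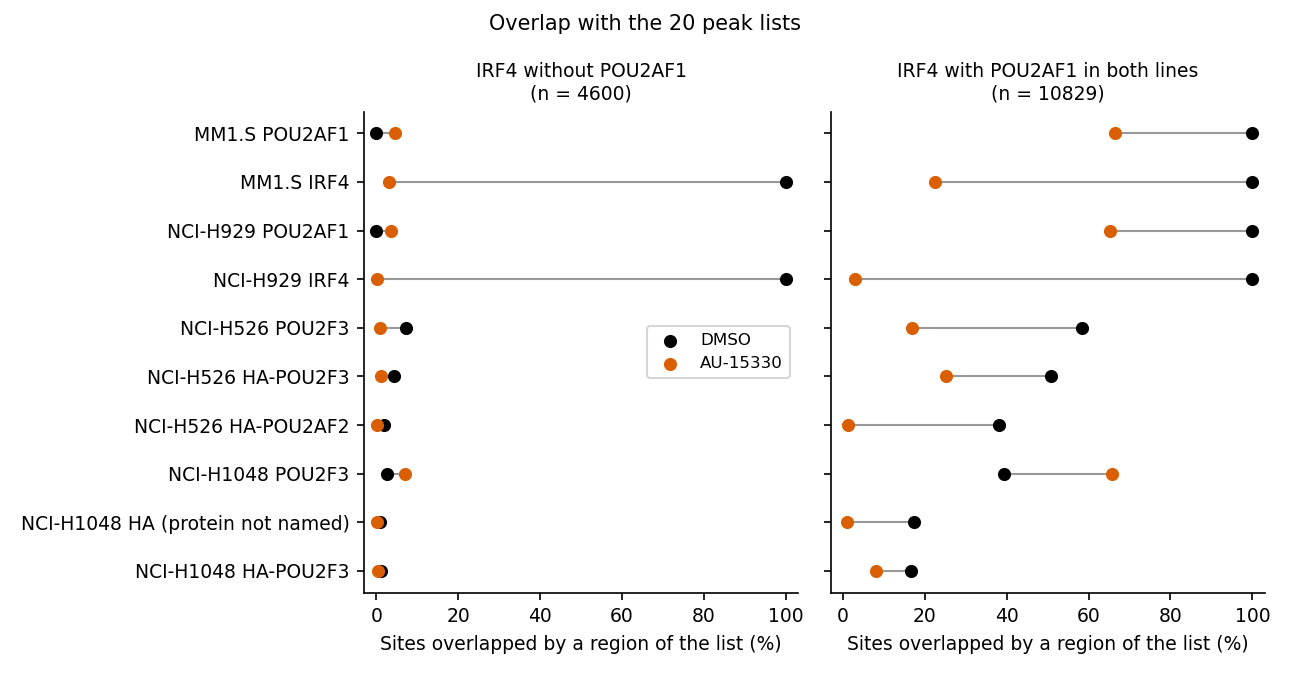
Percent of sites (x axis) overlapped by a region of each list (rows, line and protein), with DMSO in black and AU-15330 in orange joined by a line, for the 4600 sites without POU2AF1 (left) and the 10829 regions with POU2AF1 in both lines (right). The 4 DMSO myeloma lists stand at 0% or 100% because they define the sets. On the left, all the AU-15330 and SCLC points lie at or under 7.28%.

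IRF sequences were common under the summits and octamers few. Within 100 bases of the MM1.S summit, on either strand, the ISRE-like pattern was present at 982 sites (21.3%, 20.2 to 22.6), against 3.10% of windows 2 kb to either side, a ratio of 6.89. The EICE-like pattern was present at 507 (11.0%, flanks 2.15%). Either was present at 1407 sites (30.6%, 29.3 to 31.9), against 10.2% (9.64 to 10.8) of the regions with POU2AF1 in both lines. The share was 23.2% with POU2AF1 in MM1.S only, 21.3% with it in NCI-H929 only, 14% in IRF4 regions of MM1.S alone and 16.7% over all MM1.S IRF4 regions. Outside promoters, where base composition was closer, the shares were 32.6% (31.2 to 34.1) and 20.2% (18.9 to 21.5). Most sites with a match had 1, and 218 (4.74%) had 2 or more. Among the matches, 43.4% had their centre within 30 bases of the summit.

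The share with an IRF match rose with binding strength, from 15.2% of the sites in the weakest bin of the MM1.S list to 44.6% in the strongest, and it was 66% of the 100 sites with the highest MM1.S fold. Regions with POU2AF1 in both lines went from 3.62% to 21.8% over the same bins, with 49% of the strongest 100. The octamer ATTTGCAT, the sequence of the POU2 factors, was present at 1.21% (0.9 to 1.6) of the sites outside promoters and 1.77% of their flanks. Outside promoters it was present at 4.55% (3.92 to 5.26) of the regions with POU2AF1 in both lines and 1.43% of theirs. Its core TTTGCAT gave 5.38% against flanks of 5.32% at the sites, and 7.82% against 4.67% where POU2AF1 was called in both lines. With promoters included, ATTTGCAT was at 1.13% of the sites (flanks 1.70%) and 1.94% with POU2AF1 in both lines (flanks 1.18%). It was under its flanks also with POU2AF1 in MM1.S only, at 1.40% (flanks 1.70%), and in NCI-H929 only, at 1.68% (flanks 1.81%). A lack of octamer excess was thus not particular to the sites. No match states only that these letters were not in the window.

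Of the other patterns outside promoters, AP-1 was about as common as at the regions with POU2AF1 in both lines. The RUNX, E-box, GC box, ETS and NF-kB sequences were less common at the sites than at those regions. Outside promoters, the AP-1 sequence TGANTCA was present at 11.9% of the sites and 12.0% of those regions, in both cases against flanks under 7%. The RUNX sequence AACCACA was present at 15.3% of the sites (flanks 3.67%) and 19.2% of those regions, and the E-box CAGCTG at 13.9% (flanks 6.75%) and 19.2%. The GC box GGGCGGG, common in CpG-rich promoters, stood at 1.98% and 9.52%, and the ETS sequence CCGGAAGT at 0.297% and 0.952%. The E-box CACGTG stood at 2.26% and 4.27%, and the NF-kB pattern at 0.719% and 1.78%. Over all sites, composites of AP-1 with a single GAAA were rare. The form with GAAA 4 bases before TGANTCA was present at 21 of the 4600 sites (0.457%, flanks 0.109%). It was at 0.102% of the regions with POU2AF1 in both lines and 0.186% of all MM1.S IRF4 regions. The form with GAAA directly after TGANTCA was present at 10 sites (0.217%, flanks 0.164%). The EICE and ISRE-like patterns cannot match at the same position, while TTTGCAT is part of ATTTGCAT.

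**Figure D5:**
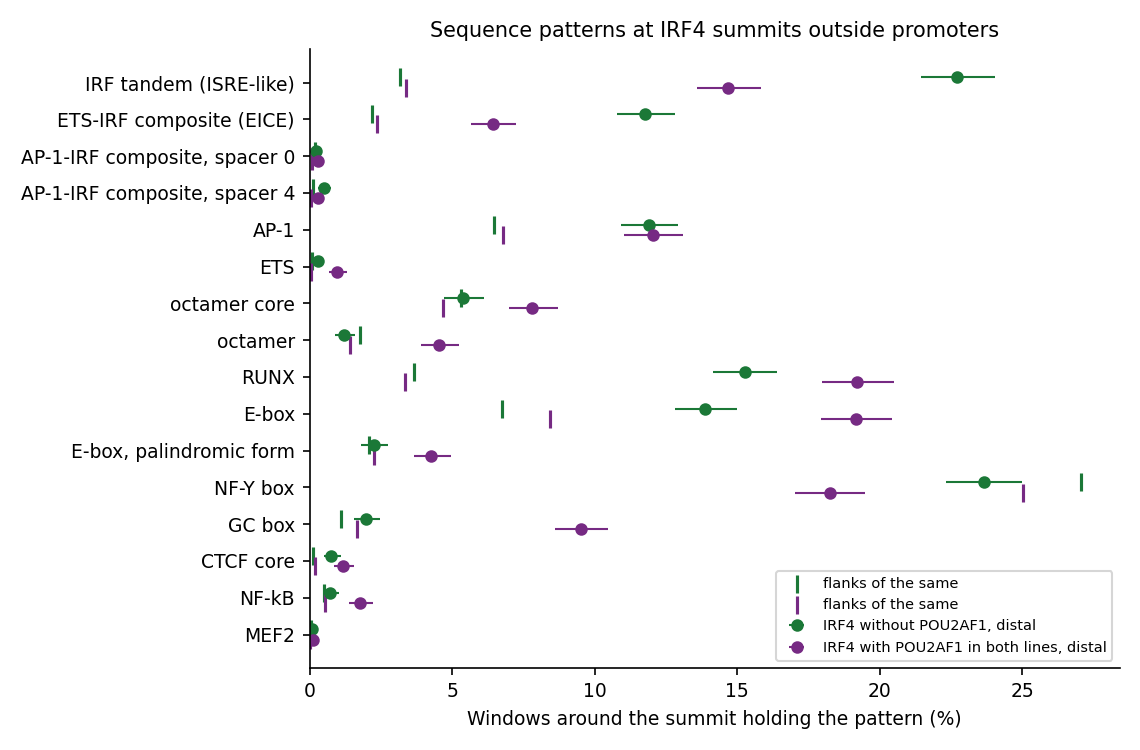
Percent of 201-base windows outside promoters that hold each pattern (points with exact 95% binomial intervals) and percent of windows 2 kb to either side (vertical ticks), for sites without POU2AF1 (green) and regions with POU2AF1 in both lines (purple). The ISRE-like pattern stands at 22.7% in green and 14.7% in purple, and the octamer at 1.21% in green, under its tick of 1.77%, and 4.55% in purple.

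A gene was given a site when the site lay in its body or within 10 kb upstream. On that count 2715 sites (59.0%) fell to 2475 of 19962 protein-coding genes, a background of 12.4%, and 2038 of these genes had 1 site each. The gene lists below are described against that share. Many of their genes also held a region with POU2AF1 in both lines. These were 25 of 44 interferon-stimulated, 6 of 9 IRF family and 9 of 16 MHC class I genes. The same held for 11 of 20 IRF partner genes and 11 of 26 plasma cell genes. Of 44 interferon-stimulated genes, 8 held a site (18.2%), and 6 had one within 2 kb of a TSS (13.6%, against 3.96% of all genes): IFI44, MX2, RSAD2, RIGI, SAMD9L and STAT2. The other genes were ISG20, whose site lay in AEN, and IFIT3, with a site in its intron. The sites of MX2, RIGI, SAMD9L, ISG20 and IFIT3 held no IRF match. A POU2AF1 DMSO region lay 410 bases from the IFIT3 site, 509 from MX2, 539 from SAMD9L and 899 from STAT2. At the other interferon-stimulated genes it was at least 4890 bases away. At the MX2 promoter, a dynamin-like GTPase that blocks viruses, the IRF4 level was 10.5 in MM1.S and 23.7 in NCI-H929 with DMSO. At the promoter of RSAD2, which encodes viperin, it was 5.93 and 22.9. At that of IFI44 it was 9.58 and 7.77. The RIGI promoter site, at a cytosolic RNA sensor, was the only one of the 8 found again in MM1.S, at a level of 6.58 against 8.21 with DMSO.

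IRF1, IRF2 and IRF3, of 9 IRF family genes, each had a site at its promoter, where the MM1.S levels were 10.9, 7.75 and 9.58 and those of NCI-H929 14.7, 19.6 and 12.7. None of these was found again with AU-15330, and only the IRF2 site held an IRF match. A POU2AF1 DMSO region lay 66 bases from the IRF3 site, 579 from that of IRF1 and 4684 from that of IRF2. The IRF1 and IRF3 sites were also overlapped by a POU2AF1 AU-15330 region of NCI-H929. In the MHC class I pathway, 4 of 16 genes held a site: NLRC5, the transactivator of these genes, PSMB10, an immunoproteasome subunit, ERAP2, a peptide-trimming protease, and HLA-E. The NLRC5 promoter site was the strongest of them, ranked 104 of the 4600, with levels of 12.3 in MM1.S and 41.3 in NCI-H929. The NLRC5 and HLA-E sites held no IRF match, while the PSMB10 site and the best-ranked ERAP2 site did. A POU2AF1 DMSO region lay 619 bases from the PSMB10 site and at least 1398 from the others. Of 20 genes for factors that partner with IRFs, SPIB, ETV6, JUND and STAT2 held a site, and the promoter site in the SPIB window, which lies in POLD1, had levels of 14.6 and 10.2. Among the best-ranked sites of these genes, only that of STAT2 held an IRF match. A POU2AF1 DMSO region lay 181 bases from the JUND site, 496 from SPIB, 899 from STAT2 and 14926 from ETV6.

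Of 26 plasma cell genes, 5 held a site (19.2%): PRDM1, the plasma cell regulator BLIMP-1, POU2AF1 itself, IKZF3, a target of lenalidomide-type drugs, SLAMF7, a surface target of antibody therapy, and ELL2, an elongation factor needed for antibody secretion. The SLAMF7 site was intergenic, 4.83 kb from the TSS, and the best-ranked sites of the other 4 genes lay in introns or, at PRDM1, in an exon. None of the 26 had one within 2 kb of a TSS, a count near the 3.96% of all genes, and none of the 9 sites in their windows was found again in either line. IKZF3 held 3 sites, the best ranked with levels of 11.9 and 11.5. POU2AF1 held 2, the better ranked being intronic, at levels of 11.4 and 10.6, while 2 other IRF4 regions of its window carried POU2AF1 in both lines. By fold, the best site of IKZF3 ranked 1921 of the 4600, SLAMF7 3270, POU2AF1 3383, ELL2 4190 and PRDM1 4591. The PRDM1 site was thus among the weakest by fold, at 3.06 in MM1.S and 2.61 in NCI-H929, with levels of 12.3 and 11.9. Of 8 genes that the study discusses for myeloma, POU2AF1 and POU2F2 held a site.

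In the remaining lists the counts were small, and a site in a gene's upstream window could lie in another gene. The SMARCD1 site lay in an intron of ASIC1 and the APOA2 site in TOMM40L. A site was held by 4 of 14 B cell genes (CIITA, SPIB, BACH2, EBF1), 3 of 13 T cell genes (CD2, TCF7, CTLA4), 2 of 20 tuft cell genes (DCLK1, SPIB), 3 of 23 genes of mSWI/SNF subunits (SMARCD1, ARID1A, ARID1B), 3 of 30 secretory and unfolded protein response genes (ERN1, SPCS1, CREB3L2), 1 of 21 NF-kB pathway genes (MAP3K14) and 1 of 12 hepatocyte genes (APOA2). None of 14 myeloid and none of 16 housekeeping genes held one, although 12 of the housekeeping genes had a region with POU2AF1 in both lines. BACH2, a repressor that holds B cells back from the plasma cell fate, had 3 sites. The nearest POU2AF1 DMSO region was 2 bases from the CREB3L2 site, 6 from TCF7, 33 from DCLK1 and 144 from APOA2. It was 496 bases from the SPIB site and at least 1656 from the best-ranked sites of the rest.

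The genes with most sites were long. TBC1D5, a regulator of endosomal transport, held 10 sites over 1288 kb, none found again in MM1.S, beside 1 region with POU2AF1 in both lines. RASGEF1B held 7 over 618 kb, and RBMS3 6 over 1436 kb. NIBAN1, a stress-responsive gene, was shorter, with 6 sites over 184 kb, or 32.6 per megabase against 7.77 in TBC1D5. A further 7 genes held 5 sites each, from 365 kb (THADA) to 2173 kb (DLG2).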

How the data were processed

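ChIP-seq peak lists of 20 libraries were used, 1 per condition, grouped by line, protein and treatment as labelled. Paired-end reads were trimmed by the authors with Trimmomatic 0.39 (submitters' processing notes) and, per the study's methods, aligned to GRCh38/hg38 with BWA 0.7.17-r1198-dirty. Alignments were filtered with Picard MarkDuplicates and SAMtools 1.9, and regions were called by MACS2 2.1.1.20160309 at a q-value of 0.05, less blacklisted ones. No control library is named in the call. The deposited lists give a fold enrichment, −log10 p and −log10 q values, and a score that was not used.

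Regions on chromosomes 1 to 22 and X were kept, and 1 shared base counted as overlap. Summit pileups were recovered from the deposited fold and −log10 p values by inverting the Poisson formula (tolerance 0.002 in −log10 p). They were recovered for all regions of the IRF4 lists. Depth, estimated from the background pileup and the shortest region's width, was 31.0 M tags in the MM1.S IRF4 DMSO library and 39.0 M with AU-15330, and 33.7 M and 39.4 M in NCI-H929. Features came from GENCODE 44 and sequence from hg38, with 16 patterns searched in 201-base windows and in flanks that overlapped no MM1.S IRF4 DMSO region. Python 3.11.15, pandas 2.3.3, SciPy 1.17.1 and pysam 0.24.0 were used, and the code was tested on simulated data. The rule for named sites took the 15 best mean ranks, the 10 best found again in MM1.S or both lines and the 10 best lost, the sites nearest the threshold, the best site of each listed gene and the genes with most sites. The sites and the 15 gene lists were chosen with earlier results of these data known. Alternatives to the overlap rule, thresholds, windows and starting list were recomputed.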

Additional observations from a re-analysis of the deposited data

How the results depend on the processing

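No paired analysis was possible because each condition had 1 library and the labels give no replicate numbers. Of 39 alternative values, 18 stayed within the counting interval, the quartiles or 1.5 times the value given, and 21 moved. A −log10 q of at least 5 in both IRF4 DMSO lists left 2322 sites, with 4.44% found again in MM1.S, a promoter share of 9.09% and an IRF match share of 38.3%. With no POU2AF1 DMSO region within 1 kb, the promoter share was 7.42%, the IRF match share 32.7% and the overlap with NCI-H526 POU2F3 6.12%. The share found again in MM1.S was 1.89% when 50% of the DMSO region had to be covered, 0.804% when the AU-15330 region needed a −log10 q of 5, 6.94% with lists of equal length and 2.49% without sites in a POU2AF1 AU-15330 list. In NCI-H929 it was 0.0435% with that −log10 q and 0.763% (1 of 131) with lists of equal length. Under the first 2 of these settings the regions with POU2AF1 in both lines gave 9.69% and 6.59% in MM1.S, so the direction of the gap was kept.

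Promoters made up 16.1% with a 2 kb window, 16.8% with TSSs of all gene types and 10.5% when NCI-H929 regions were the starting list. The IRF match share was 20.2% within 50 bases of the summit and 32.9% around the NCI-H929 summit. Summits within 200 bases gave an overlap with NCI-H526 POU2F3 of 5.00%. Sites in windows of listed genes numbered 52, against 113 with 50 kb either side and 17 within 2 kb of a TSS. The cause of these shifts was not tested, beyond the wider or narrower windows and thresholds themselves. Depth limits the lists: sites under the threshold in an AU-15330 library may still carry IRF4, and 6 sites are too few to describe what was kept in NCI-H929.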

Other observations

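Without any pattern given, the 10-base words most in excess at the sites over their flanks were all pieces of IRF sequence. GAAACTGAAA was at 327 sites (7.11%) against 0.131% of flank windows, AACTGAAACT at 215 (4.67%, flanks 0.175%) and GAAAGTGAAA at 180 (3.91%, flanks 0.109%). GGAAGTGAAA, an EICE-like form, was at 161 sites (3.50%, flanks 0.120%). Words such as GAAAGAGAAA, which also match the ISRE-like pattern, were less in excess, with 17.6 copies per 1000 sites against 3.94 per 1000 flanks.

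The CTCF core pattern was present at 35 sites (0.761%) against 0.109% of flanks, close to the 0.792% of all MM1.S IRF4 regions. The CCAAT box was present at 22.6% of the sites, under the 26.6% of their flanks. Over all MM1.S IRF4 regions it was likewise under its flanks, at 20.4% against 25.5%. The NF-kB pattern was present at 39 sites (0.848%, flanks 0.536%), against 1.51% of all MM1.S IRF4 regions. The MEF2 pattern was present at 5 sites (0.109%), against 0.105% of all MM1.S IRF4 regions.

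By nearest TSS rather than by window, TENM3 had most sites, with 9, followed by CHRM3, MRPL39 and RASGEF1B with 8 each.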
